A study of Mus musculus with 21 samples.

Results

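The set described here is 37 genes of the lysosome and of the proton pump that acidifies it, taken by symbol from the 34236 gene names of a count table of sorted mouse kidney macrophages. All 37 were found and all passed the filter on low counts in every comparison. They were arranged by role into 5 membrane glycoproteins, 3 genes of cholesterol handling, 8 glycosidases and sulfatase, 2 genes of sphingolipid breakdown, 3 genes grouped as progranulin, a peptidase and a thioesterase, 2 acid phosphatases, 4 genes for a calcium channel and the MiT/TFE transcription factors, and 10 subunits of the vacuolar proton ATPase (V-ATPase), 4 from its membrane sector V0 and 6 from its catalytic sector V1. The rule lists genes by name and uses no measured value, but the set was drawn up with earlier results of these data known.

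Lysosomes digest what a macrophage takes up. Their acid hydrolases split lipids, glycans and proteins, and they work at the low pH that the V-ATPase maintains: the V1 sector hydrolyses ATP in the cytosol and turns a rotor that drives protons through the V0 sector in the membrane. Tfeb, Tfe3 and Mitf are related transcription factors that bind E-box sequences in the promoters of many lysosomal genes. In the kidney the V-ATPase is also abundant outside macrophages, at the plasma membrane of acid-secreting intercalated cells and in the endosomes of the proximal tubule.

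RNA was sequenced in 21 libraries from male C57BL/6J mice, labelled 24 weeks of age, whose kidneys had either a Sham operation, in which the renal artery was only dissected free, or a renal artery stenosis (RAS) made by a cuff around the artery. From digested kidneys 3 populations of F4/80+CD64+ cells were sorted, CD11chiMϕ (3 Sham and 4 RAS libraries) and CD11cloMϕ (3 and 4), which the study treats as monocyte-derived, and the kidney-resident macrophages KRM (4 and 3). Neither the labels nor the methods say how many mice made up a library. All groups went through the same enzymatic digestion and a sort labelled 5 hours, and no allele or agent was used.

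Library totals ran from 6891177 to 18592427 counts, and values below are CPM unless a length-corrected scale is named. For CPM each library's total was multiplied by its TMM scaling factor from edgeR, and these factors ran from 0.836 to 1.157. A count was then divided by that product and scaled to a common total. All 10 genes of a macrophage identity list had counts in every library, with a summed level of 3601 to 27512 CPM. Some libraries stood apart through kidney tubule RNA. The Sham libraries of replicate 3 carried 9 proximal tubule markers at a summed 22663 CPM in CD11chiMϕ, 8757 CPM in CD11cloMϕ and 3436 CPM in KRM, against 187 to 657 CPM in the other 7 Sham libraries. KRM RAS replicates 2 and 3 carried 7 intercalated cell markers at 653 and 557 CPM, 5 principal cell markers at 1349 and 979 CPM and 5 thick ascending limb markers at 3250.4 and 2464 CPM, where KRM RAS replicate 1 held 4.13, 4.13 and 97.9 CPM. KRM RAS replicate 1 instead had the highest summed level of 6 T and NK cell markers, 274 CPM, and its column was the only one of 21 that did not correspond between the 2 deposited tables. In deviations from gene means its counts correlated at 0.09 with its own column of the length-corrected table. They correlated best, at 0.53, with the column of KRM Sham replicate 3. The other 20 correlated at 0.915 or more with their own, so which library this count column holds is uncertain. In bulk RNA fewer cells of a type and less RNA per cell cannot be told apart.

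Promoter sequence is shown first because the set includes the MiT/TFE factors, which bind E-boxes. Of the 37 members, 31 matched RefSeq promoter windows on GRCm38.p6, 41 windows in all, each running from 250 bases before the annotated start to 50 after it. Npc1, Galns, Asah1, Atp6v1b2, Atp6v1c1 and Atp6v1h had no entry. The letters CACGTG, searched on both strands, were in 17.1% of member windows and in 7.15% of all 32851 windows. The longer TCACGTGA, which contains CACGTG, was in 9.76% of member windows and 0.974% of all. TCATGTGA, an E-box that Mitf and its relatives also bind, was in 14.6% and 0.986%. TCACGTGA with a further G before it and a C after it was in 0 member windows and in 0.326% of all windows. The windows with an 8-letter match belonged to 9 members, Gla, Mcoln1, Atp6v1a, Atp6v0d1, Atp6v0c, Acp5, Grn, Ppt1 and Tpp1. A match is a description of these letters and not a binding site.

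For 6 of these 9 members a match lay wholly before the annotated start, and the stretches are shown for the genes whose values carry the account that follows. Each is written 5′ to 3′ on the gene's strand, with the 8 matching letters in capitals, on either strand, and at most 20 bases on either side.
Gla, chrX:134601173-134601253, minus strand: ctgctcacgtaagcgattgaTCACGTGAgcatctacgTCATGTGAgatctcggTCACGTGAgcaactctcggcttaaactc
Atp6v1a, chr16:44139364-44139411, minus strand: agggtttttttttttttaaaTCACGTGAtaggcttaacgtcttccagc
Mcoln1, chr8:3500453-3500500, plus strand: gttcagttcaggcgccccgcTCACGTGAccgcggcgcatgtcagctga
Atp6v0c, chr17:24169451-24169487, minus strand: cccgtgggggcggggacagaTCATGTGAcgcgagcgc
Acp5, chr9:22130662-22130709, minus strand: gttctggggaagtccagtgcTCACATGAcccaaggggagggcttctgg
Grn, chr11:102430276-102430323, plus strand: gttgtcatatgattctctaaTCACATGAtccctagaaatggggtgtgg
The promoter of Gla, which encodes alpha-galactosidase A, held 3 matches, starting 228, 211 and 195 bases before the annotated start. Those of Atp6v1a and Mcoln1 held 1 each, starting 132 and 46 bases before it. The starts are those of the RefSeq windows. In GENCODE the gene spans of Atp6v1a, Mcoln1, Atp6v0c and Acp5 begin farther upstream, and their matches lie inside those spans.

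Levels of different genes were compared only on the deposited length-corrected scale, log2(TPM + 1), in Sham kidneys. In KRM the set ran from 11.80 ± 0.10 for Psap (SD, n = 4), the precursor of the saposins that present sphingolipids to their hydrolases, to 2.83 ± 0.23 for Gla. Psap also led in CD11cloMϕ, at 11.75 ± 0.29 (SD, n = 3), where Gla stood at 4.67 ± 0.31 and Mitf was lowest at 2.73 ± 0.23. Behind Psap in KRM came Cd68, the heavily glycosylated macrophage antigen, at 10.38 ± 0.06, and Lamp1, a main glycoprotein of the lysosomal membrane, at 9.66 ± 0.16. Lamp1 lay below Cd68 by more than their SDs, whereas Lamp1, Grn at 9.62 ± 0.03 and Atp6v0b at 9.62 ± 0.13 were closer together than the SD of Lamp1.

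Within the pump, the subunits of KRM were spread over more than 4 log2 units on the length-corrected scale. The proteolipid subunits Atp6v0b and Atp6v0c, which form the proton-carrying ring, had the highest levels, 9.62 ± 0.13 and 9.44 ± 0.11 (SD, n = 4). The catalytic subunit Atp6v1a had the lowest, 5.39 ± 0.19. In CD11cloMϕ the same subunit stood at 6.27 ± 0.21 (SD, n = 3). Among the transcription factors of KRM, Tfe3 at 6.32 ± 0.08 and Tfeb at 6.07 ± 0.15 lay well above Mitf at 3.04 ± 0.22.

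**Figure D1:**
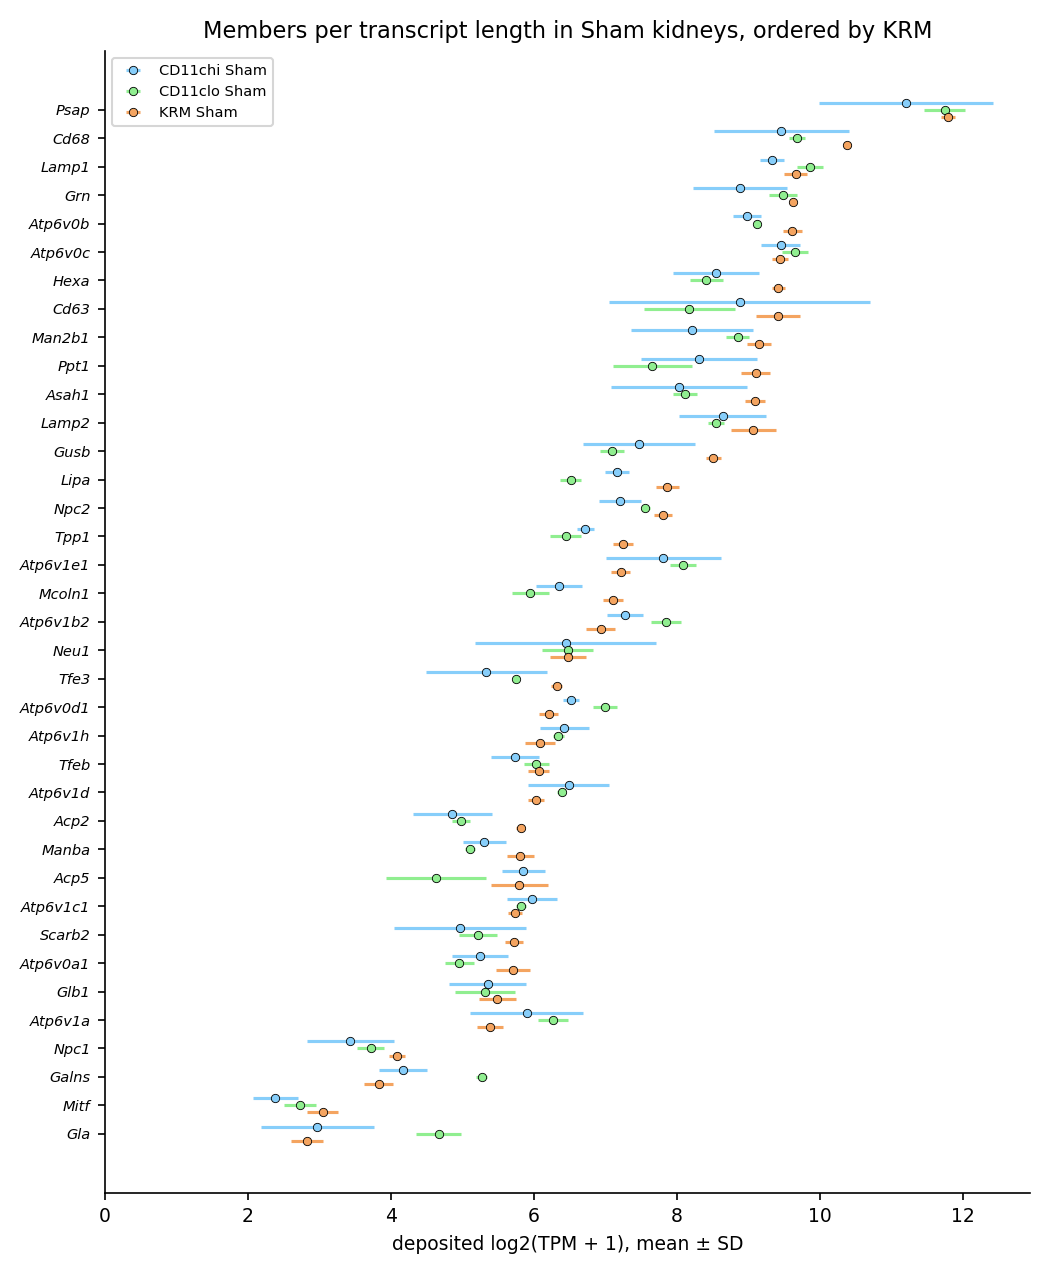
Deposited log2(TPM + 1) of the 37 members in Sham kidneys, mean ± SD over 3 CD11chiMϕ, 3 CD11cloMϕ and 4 KRM libraries, ordered by KRM. Psap has the highest mean in all 3 populations, and Gla and Galns lie higher in CD11cloMϕ than in KRM.

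More members were called between KRM and CD11cloMϕ of Sham kidneys than in any other comparison. The 6 subunits of the V1 sector had a median log2 fold change of -0.90 in KRM, with 5 called lower. The 4 of the V0 sector were mixed, with 1 higher and 2 lower. Of the 8 glycosidases and sulfatase 3 were higher and 2 lower, and in the 6 other groups outside the pump 10 members were higher and 1 lower. At an adjusted p under 0.05 (edgeR's quasi-likelihood test, Benjamini-Hochberg over all genes tested), 24 of 37 members differed, 14 higher and 10 lower in KRM, where 41.8% of all 12399 genes tested were called, 19.5% higher and 22.3% lower. As shares of the members this is 64.9% called, 37.8% higher and 27.0% lower. The median log2 fold change of the 37 was 0.13, against -0.04 over all genes tested. The 27 members outside the pump had a median of 0.41, with 13 higher and 3 lower, and the 10 pump subunits a median of -0.58, with 1 higher and 7 lower. Libraries of the groups did not overlap for 15 members that lay higher in KRM and 11 that lay lower, where 24.9% and 23.9% of all genes did so.

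Markers of macrophages and of other blood cells moved with this comparison. All 10 macrophage identity genes were called higher in KRM, with a median log2 fold change of 1.56 and sums of 19581 to 27512 CPM against 5356 to 6870 CPM. The 6 neutrophil markers summed to 679 to 1596 CPM in CD11cloMϕ and to 3.03 to 6.86 CPM in KRM, where 3 of the 6 were at 0 in each library, and the 3 tested were lower in KRM. All 5 monocyte markers were lower in KRM, at a summed 520 to 812 CPM against 2075 to 4958 CPM. The 5 B and plasma cell markers summed to 411 to 516 CPM in KRM and 12.7 to 46.8 CPM in CD11cloMϕ, with 2 of 3 tested higher. Of 6 dendritic cell markers 2 were higher and 1 lower, and of 9 dissociation stress genes 3 were higher and 2 lower. Their part in the members' values was not tested.

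**Figure D2:**
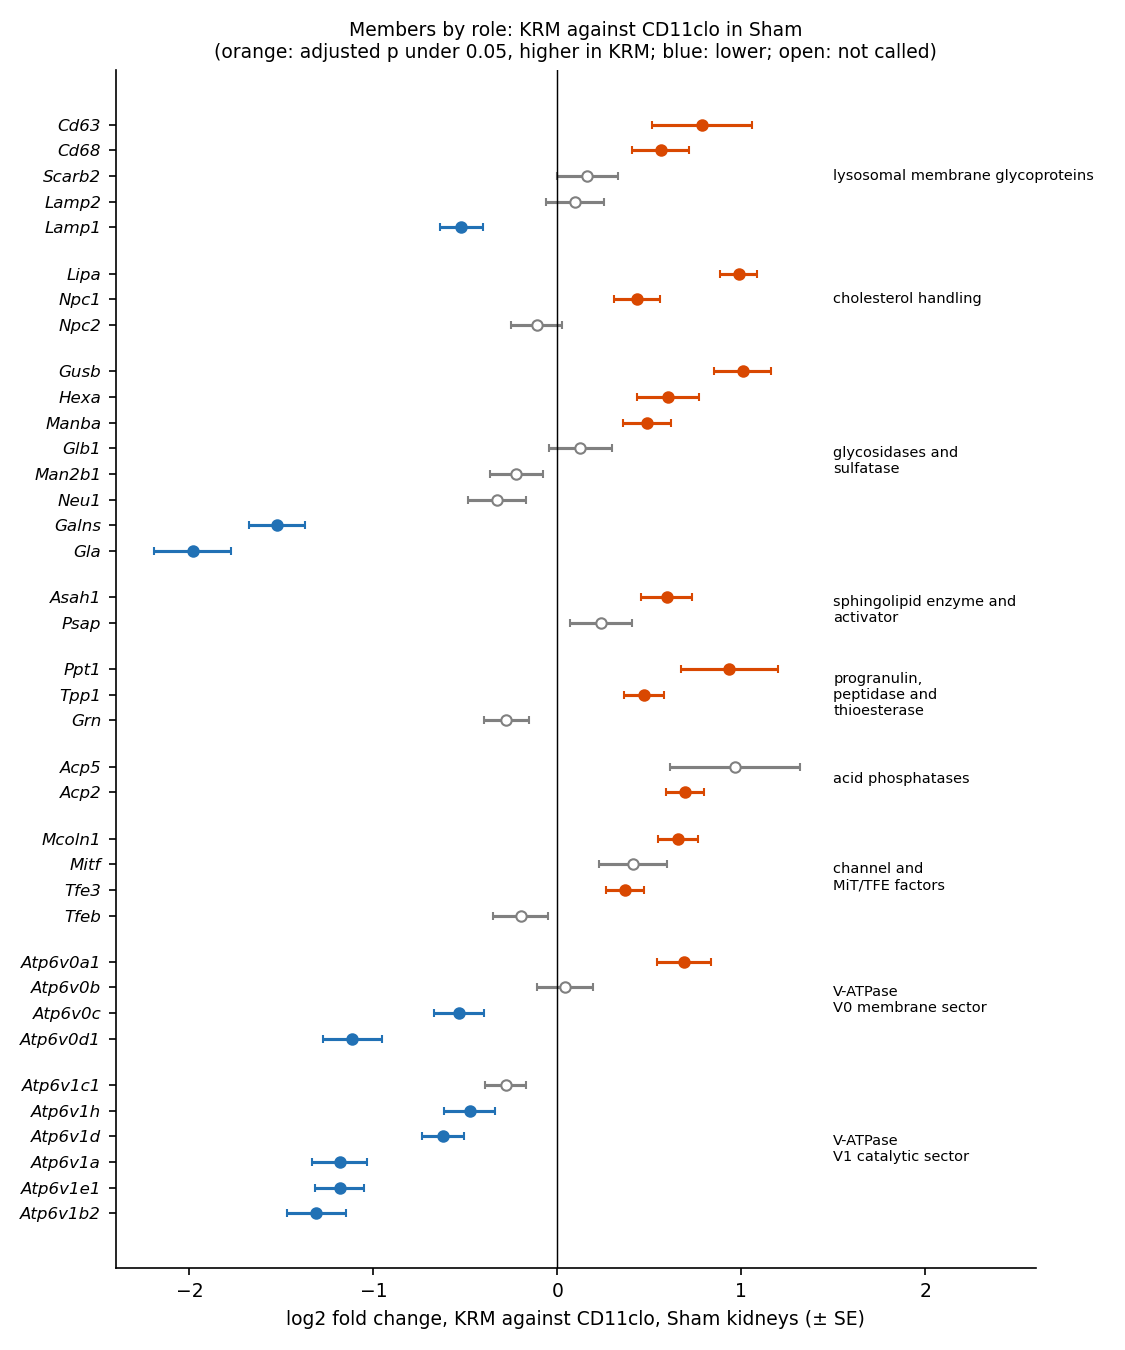
Log2 fold change of the 37 members in KRM against CD11cloMϕ of Sham kidneys, grouped by role, with bars of 1 SE; orange marks members called higher, blue lower and open grey points those not called. Of 6 V1 subunits 5 lie among the members called lower, and members outside the pump lie mostly to the right of 0.

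Among enzymes higher in KRM, Lipa, the acid lipase that frees cholesterol from its esters, stood at 336, 359, 355 and 365 CPM in the 4 KRM Sham libraries and at 174, 165 and 189 CPM in the 3 CD11cloMϕ Sham libraries. The groups lay far apart, and KRM was higher by 0.99 ± 0.10 on the log2 scale (SE, adjusted p = 0.000145, edgeR). Gusb, beta-glucuronidase, stood at 493, 467, 393 and 432 CPM against 252, 220.4 and 181 CPM, again without overlap, and differed by 1.01 ± 0.16 (adjusted p = 0.00131, edgeR). Gusb was also 1 of the reference genes of the study's quantitative PCR. Acp2, a lysosomal acid phosphatase, was at 117, 123, 120.3 and 126 CPM in KRM and at 73.3, 66.5 and 82.8 CPM in CD11cloMϕ. Its log2 fold change was 0.69 ± 0.10 (adjusted p = 0.00108, edgeR).

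Further enzymes that were higher in KRM covered several substrates. Ppt1, which removes palmitate from proteins, was higher by a log2 fold change of 0.93 ± 0.26, Hexa, the alpha subunit of beta-hexosaminidase, by 0.60 ± 0.17, and the acid ceramidase Asah1 by 0.59 ± 0.14 (adjusted p = 0.0219, 0.0215 and 0.00947, edgeR). Manba, beta-mannosidase, and Tpp1, a tripeptidyl peptidase, were higher by 0.49 and 0.47. Npc1, the membrane protein that exports cholesterol, was higher by 0.43 ± 0.12, whereas its soluble partner Npc2 stood at -0.11 ± 0.14 and was not called. Man2b1, Glb1, Neu1, Psap and Grn, the gene of progranulin, were not called. Grn stood at -0.28 ± 0.12 (adjusted p = 0.106, edgeR), with 789 to 993 CPM in KRM and 972 to 1107 CPM in CD11cloMϕ, ranges that overlapped.

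A pair of hydrolases went the other way. Gla stood at 10.8, 12.0, 11.4 and 15.9 CPM in KRM and at 37.3, 60.5 and 48.3 CPM in CD11cloMϕ. It was lower in KRM by the largest margin of the set, a log2 fold change of -1.98 ± 0.21 (adjusted p = 0.000184, edgeR). Galns, the sulfatase that acts on keratan sulfate, stood at 19.9, 22.3, 24.7 and 17.8 CPM against 61.9, 56.7 and 61.9 CPM. Its log2 fold change was -1.52 ± 0.15 (adjusted p = 0.000132, edgeR), and neither gene's groups overlapped.

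**Figure D3:**
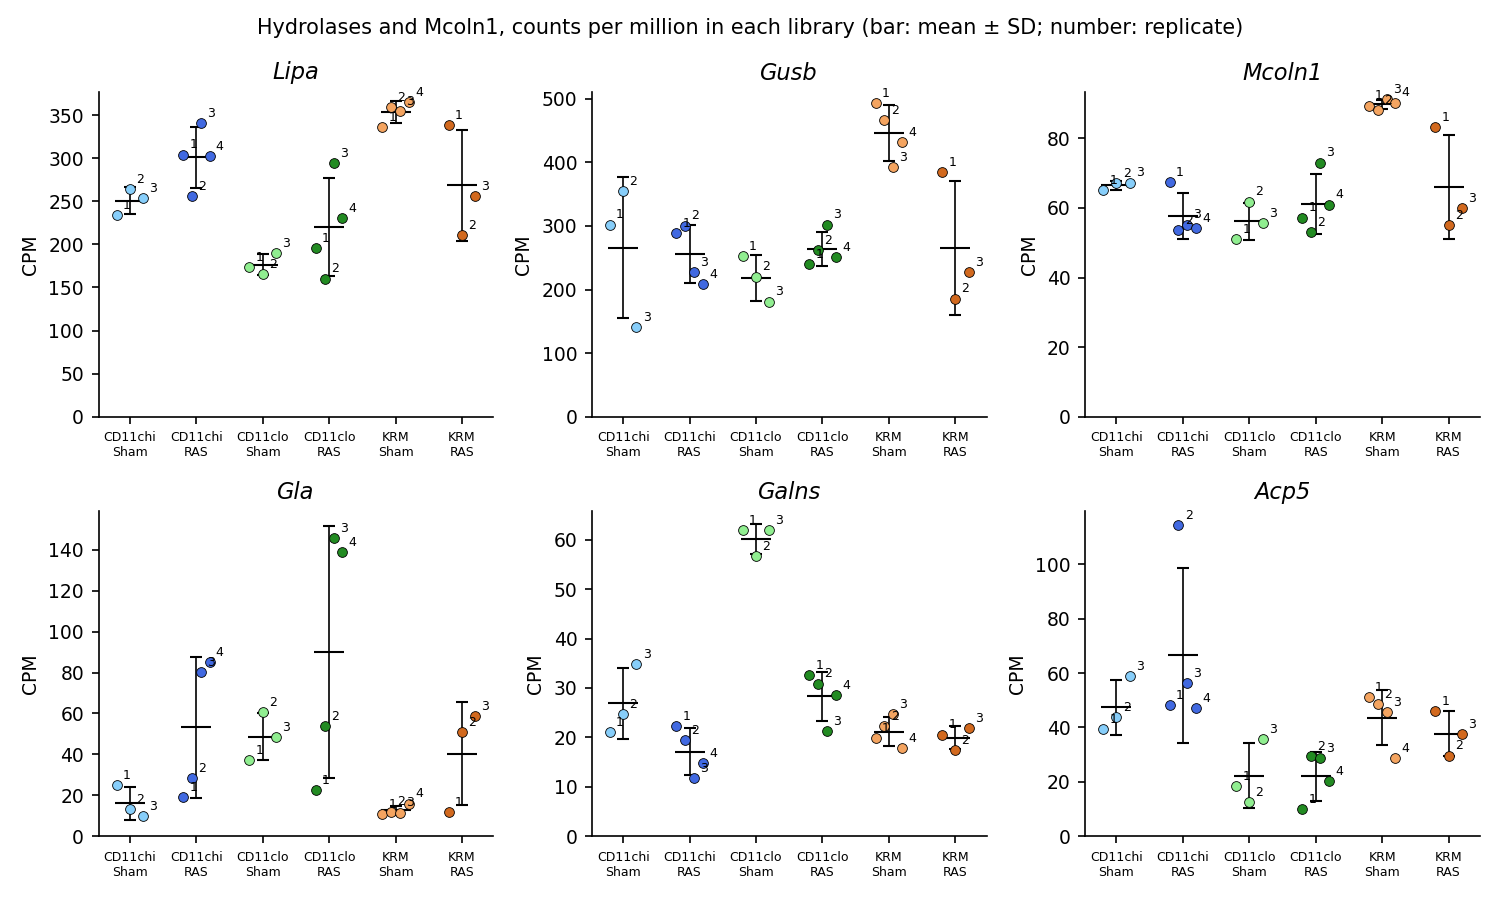
CPM of Lipa, Gusb, Mcoln1, Gla, Galns and Acp5 in each of the 21 libraries by group, with the replicate number beside each point and bars of mean ± SD. Lipa, Gusb and Mcoln1 are highest in KRM Sham, Gla and Galns are higher in CD11cloMϕ Sham, and Gla spreads widely in all 3 RAS groups.

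The membrane glycoproteins were split. Cd68 was at 1133, 885, 754 and 883 CPM in KRM and at 641, 574 and 613 CPM in CD11cloMϕ, higher by a log2 fold change of 0.56 ± 0.15 (adjusted p = 0.0198, edgeR). Cd63, a tetraspanin of late endosomes and lysosomes, was higher by 0.79 ± 0.27 (adjusted p = 0.0472, edgeR) with groups that overlapped. Its call was lost in 9 of the 15 alternatives judged by adjusted p, with values up to 0.458. Cd63 also missed the alternative rule of a fold above 2 with unadjusted p under 0.05. Lamp1 was lower, at 916, 889, 903 and 829 CPM against 1310.0, 1128 and 1321 CPM, a log2 fold change of -0.52 ± 0.12 (adjusted p = 0.00832, edgeR). Lamp2 at 0.10 ± 0.16 and Scarb2, the receptor that carries glucocerebrosidase to lysosomes, at 0.16 ± 0.17 were not called.

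Mcoln1, a lysosomal calcium channel, was at 89.4, 88.0, 91.3 and 90.3 CPM in KRM and at 51.1, 61.8 and 55.7 CPM in CD11cloMϕ, which gave a log2 fold change of 0.65 ± 0.11 (adjusted p = 0.00206, edgeR). Tfe3 was higher by 0.37 ± 0.10 (adjusted p = 0.0228, edgeR), with 127 to 149 CPM against 101 to 111 CPM. Tfeb, at 61.9 to 87.2 CPM against 75.7 to 94.5 CPM, had a log2 fold change of -0.20 ± 0.15 (adjusted p = 0.325, edgeR). Mitf lay at 13.3 to 17.2 CPM in KRM and 10.3 to 12.4 CPM in CD11cloMϕ, without overlap, but its 0.41 ± 0.18 did not pass (adjusted p = 0.111, edgeR). Of the transcription factors, then, Tfe3 alone was called.

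The V1 sector was lower in KRM. Atp6v1b2, the nucleotide-binding B subunit of most tissues, stood at 161, 161, 195 and 166 CPM in KRM and at 478, 435 and 338 CPM in CD11cloMϕ, so that the log2 fold change was -1.31 ± 0.16 (adjusted p = 0.000403, edgeR). The stator subunit Atp6v1e1 stood at 114, 94.3, 102 and 86.3 CPM against 231, 198 and 238 CPM, a log2 fold change of -1.18 ± 0.13 (adjusted p = 0.000242, edgeR). For both genes the groups were far apart.

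Atp6v1a stood at 78.7, 95.4, 101 and 78.2 CPM in KRM against 209, 166 and 220.3 CPM in CD11cloMϕ, a log2 fold change of -1.18 ± 0.15 (adjusted p = 0.000445, edgeR). The rotor subunit Atp6v1d and the regulatory subunit Atp6v1h were lower by smaller margins, at -0.62 ± 0.12 and -0.48 ± 0.14. Atp6v1c1 at -0.28 ± 0.11 was not called (adjusted p = 0.0755, edgeR), although its groups did not overlap. Summed over the 6 subunits, V1 mRNA was 503 to 582 CPM in KRM and 1028 to 1175 CPM in CD11cloMϕ.

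The V0 sector was mixed. Atp6v0d1, which couples V0 to the rotor, was at 74.8, 59.7, 62.0 and 57.3 CPM in KRM and at 152, 142 and 111 CPM in CD11cloMϕ, a log2 fold change of -1.12 ± 0.16 (adjusted p = 0.00092, edgeR). Atp6v0c was also lower, by -0.53 ± 0.14, while Atp6v0a1, an isoform of the large membrane subunit, was higher by 0.69 ± 0.15 (adjusted p = 0.0142 and 0.00647, edgeR). Atp6v0b at 0.04 ± 0.15 was not called. Atp6v0c has the processed pseudogenes Atp6v0c-ps1 and Atp6v0c-ps2 and Cd63 has Cd63-ps, so that reads could be divided between copies, and their values are uncertain.

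Sham libraries with the same replicate number correlated between populations in their deviations from group means, at 0.22 to 0.67. These correlations were highest for the tubule-rich replicate 3, at 0.58 to 0.67, and no label says that such libraries share mice. With the number as a block 22 members were called in this comparison, where 34.3% of all genes were. Npc1, Tfe3 and Atp6v1h then missed the threshold (adjusted p = 0.0738, 0.0647 and 0.0992, edgeR) and Acp5 passed at a log2 fold change of 1.24. Without the 3 Sham libraries of replicate 3, rich in proximal tubule markers, 22 members were called where 46.7% of all genes were. Npc1, Manba, Tfe3 and Atp6v1h lost the call, and Acp5 at 1.43 ± 0.28 and Atp6v1c1 at -0.38 ± 0.14 gained it. Atp6v1a then stood at -1.19 ± 0.16, Atp6v1b2 at -1.52 ± 0.13, Lipa at 1.02 ± 0.14 and Gla at -1.96 ± 0.25, and all 4 were called.

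Other genes of the pathway, 64 of which were listed by role, are given for the same comparison. Of 22 other lysosomal hydrolases 12 were higher and 2 lower in KRM. Pla2g15, a lysosomal phospholipase, was among those higher, at 259 to 364 CPM against 71.4 to 92.9 CPM (log2 fold change 1.94 ± 0.17, edgeR). Of 15 other membrane proteins 4 were higher and 5 lower, and of 12 tested genes of nutrient sensing 2 were higher and 4 lower.

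Of 7 other V-ATPase subunits and partners tested, 2 were higher and 1 lower in KRM. Atp6ap2, an accessory subunit, stood at 383 to 418 CPM against 182 to 211 CPM and was higher by a log2 fold change of 1.03 ± 0.11 (adjusted p = 0.000201, edgeR). Tcirg1, another isoform of the large V0 subunit, was higher by 0.60 ± 0.12 and Atp6v1g1 lower by -0.51 ± 0.16. Among 6 genes of mannose 6-phosphate sorting 1 was higher and 1 lower. The lower one was Sort1, which carries some hydrolases to lysosomes, at 16.5 to 24.6 CPM in KRM and 99.0 to 159.9 CPM in CD11cloMϕ, a log2 fold change of -2.80 ± 0.23 (adjusted p = 4.53e-05, edgeR).

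Between KRM and CD11chiMϕ of Sham kidneys 0 of 37 members were called by edgeR, where 5.12% of all genes were. An unadjusted p under 0.05 was found for 10 members and 24.4% of all genes, and DESeq2 called 3 members (Lipa, Acp2 and Mcoln1) and 12.4% of all genes. The members' median log2 fold change was 0.29, against -0.07 over all genes. All 6 V1 subunits had negative values, from -1.07 for Atp6v1e1 to -0.39 for Atp6v1c1, and 4 of them had an unadjusted p under 0.05. Groups did not overlap for 15 members lying higher in KRM and 2 lying lower, where 13.5% and 10.9% of all genes did so.

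CD11chiMϕ Sham replicate 3, with the most proximal tubule marker RNA of all libraries, had the highest Atp6v1a, 275 CPM against 84.7 and 107 CPM in the other CD11chiMϕ Sham libraries, and the highest Atp6v1e1, 352 against 132 and 106 CPM. It also had 1137 CPM of Cd63 against 98.9 and 136, 409 CPM of Neu1 against 78.3 and 97.3, and the lowest Cd68, 271 against 715 and 676. In that library the 9 proximal tubule markers all had counts, and its macrophage identity sum was 5003 CPM against 8382 and 12450.2 CPM. The part of this RNA in the result was not tested. Cd63 had a log2 fold change of -0.68 ± 0.82 (adjusted p = 0.615, edgeR) with all libraries. Without the 3 Sham libraries of replicate 3 it turned to 1.27 ± 0.23 and was the single member called (adjusted p = 0.00715, edgeR), where 12.0% of all genes were. The V1 subunits then lay nearer to 0, with Atp6v1e1 at -0.30 ± 0.18, Atp6v1a at -0.21 ± 0.18 and Atp6v1b2 at -0.45 ± 0.15. With only CD11chiMϕ Sham replicate 3 left out, 6 members were called, all higher in KRM, where 13.6% of all genes were called.

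Between CD11chiMϕ and CD11cloMϕ of Sham kidneys 0 members were called by edgeR, where 1.52% of all genes were. An unadjusted p under 0.05 was found for 4 members and 17.7% of all genes, and DESeq2 called 2 members (Gla and Galns) and 7.90% of all genes. Gla stood at 25.1, 13.1 and 9.66 CPM in CD11chiMϕ against 37.3, 60.5 and 48.3 CPM, a log2 fold change of -1.55 ± 0.38 (adjusted p = 0.112, edgeR). With the replicate number as a block Acp5, tartrate-resistant acid phosphatase, was called at 1.28 (adjusted p = 0.0494, edgeR). Without the replicate 3 libraries 9 members were called where 15.7% of all genes were. Then Atp6v1b2 at -1.07 ± 0.18, Atp6v0d1 at -0.85 ± 0.18, Atp6v1a at -0.97 ± 0.20, Atp6v1e1 at -0.85 ± 0.19, Galns, Gla, Neu1 and Lamp1 were lower in CD11chiMϕ, and Acp5 was higher at 1.42 ± 0.24. Neu1 turned from 0.34 with all libraries to -0.80.

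**Figure D4:**
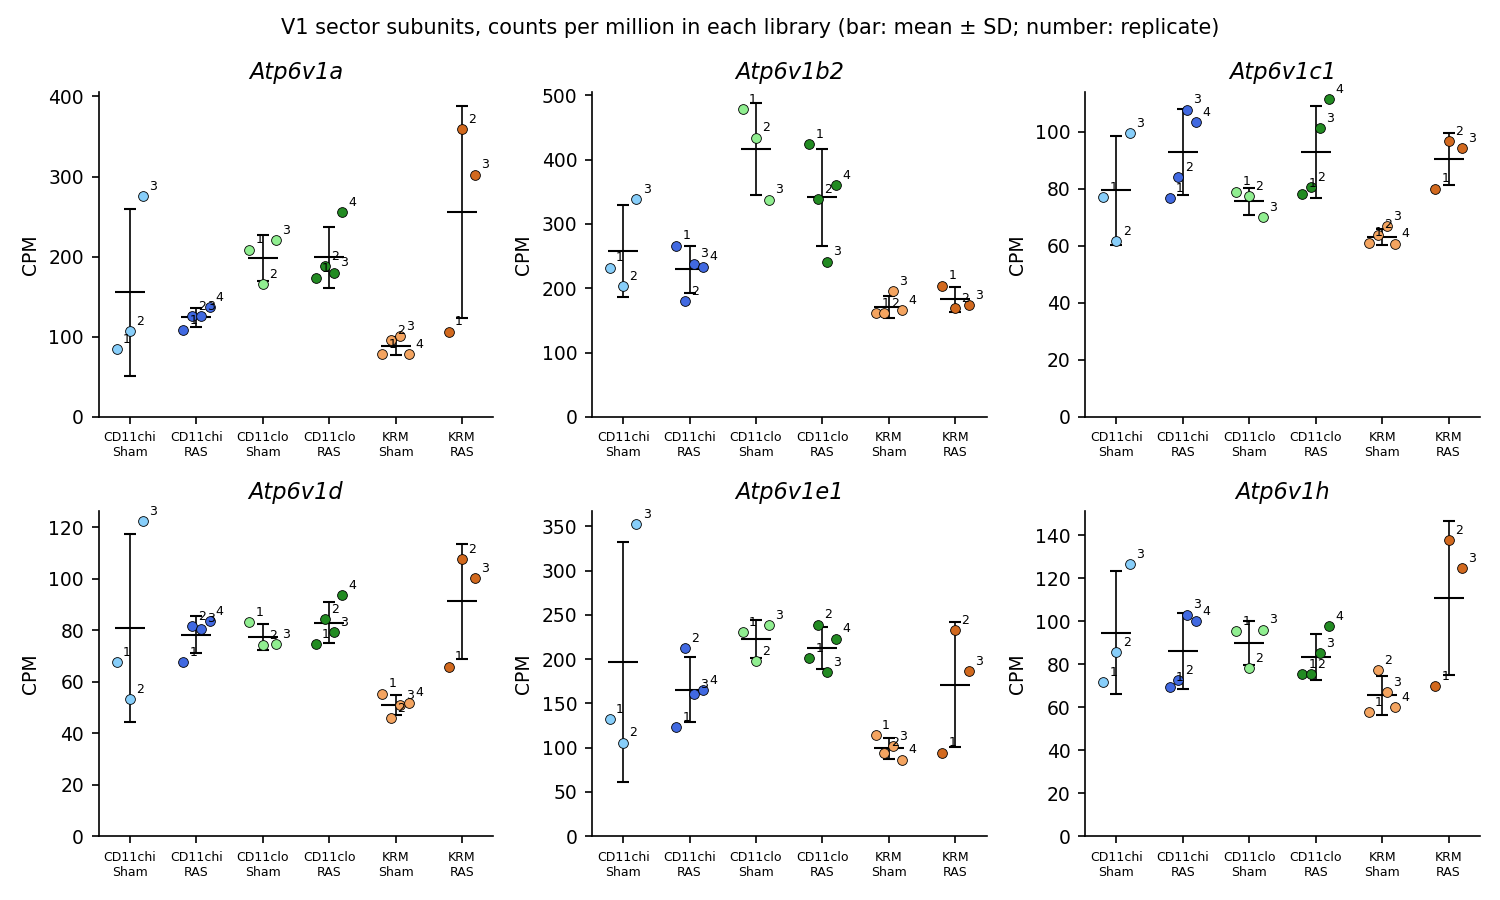
CPM of the 6 V1 subunits in each of the 21 libraries by group, with the replicate number beside each point and bars of mean ± SD. KRM Sham libraries lie low and close together, CD11chiMϕ Sham replicate 3 stands above its group, and KRM RAS replicates 2 and 3 stand above replicate 1 for every subunit but Atp6v1b2.

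In KRM the share of members called between RAS and Sham, 8.11%, was near that of all genes. Of 37 members 3 were higher in RAS than in Sham and 0 lower, all of them V1 subunits, where 9.7% of all genes were called, 7.77% higher and 1.94% lower. Atp6v1a went from 78.7, 95.4, 101 and 78.2 CPM in Sham to 106, 359 and 303 CPM in RAS, a log2 fold change of 1.65 ± 0.38 (adjusted p = 0.0387, edgeR). Atp6v1d, at 45.9 to 55.3 CPM in Sham and 65.9, 108 and 100.2 CPM in RAS, rose by 0.95 ± 0.19, and Atp6v1c1, at 60.8 to 66.8 CPM and 80.0, 96.9 and 94.3 CPM, by 0.63 ± 0.12 (adjusted p = 0.0301 and 0.0296, edgeR). The groups did not overlap for these 3 genes, as for 10.5% of all genes in that direction, and they lay apart in the lower direction for 7 members, none of them called, and 17.1% of all genes. RAS replicate 1 was the lowest RAS library for each of the 3 subunits, and its count column is the one whose library is uncertain.

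Gla had the largest log2 fold change of the set in KRM, 1.81 ± 0.49, but did not pass (adjusted p = 0.055, edgeR). Its libraries were at 11.6, 50.8 and 58.6 CPM in RAS and at 10.8 to 15.9 CPM in Sham. Atp6v1h at 0.87 ± 0.24, Atp6v0c at 0.71 ± 0.22 and Atp6v1e1 at 0.90 ± 0.29 did not pass either (adjusted p = 0.0599, 0.0738 and 0.0805, edgeR). Cd68 at -0.58 ± 0.20 and Gusb at -0.64 ± 0.24 had negative values that were not called. The median over the 10 pump subunits was 0.67 and over the 27 other members -0.19, against 0.02 over all genes.

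These calls depended on most of the single libraries. Without KRM RAS replicates 2 and 3, 0 members were called by edgeR where 1.31% of all genes were, and Atp6v1a stood at 0.31 ± 0.20, Atp6v1d at 0.41 ± 0.15 and Atp6v1c1 at 0.38 ± 0.15 (adjusted p = 0.767, 0.443 and 0.459), with the lone RAS library assumed to vary like the Sham libraries. Without replicate 1, 23 members were called, 9 higher and 14 lower, where 50.2% of all genes were, 28.1% higher and 22.1% lower. Leaving out RAS replicate 2 or 3 alone left 0 members, with 0.216% and 0.246% of all genes called, and so did leaving out KRM Sham replicate 1, 2 or 4, with 0.219%, 0.259% and 0.338%. DESeq2 called 14 members, 8 higher and 6 lower, the latter including Cd68, Gusb and Psap, where it called 25.6% of all genes, 18.3% higher and 7.32% lower.

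Replicates 2 and 3 were also the libraries with distal tubule and collecting duct RNA. In each of the 4 KRM Sham libraries 3 of 7 intercalated cell markers were at 0 counts, and the 7 summed to 1.56 to 4.54 CPM, against 4.13, 653 and 557 CPM in the RAS libraries. Atp6v1b1, the B subunit isoform of intercalated cells, was at 0 counts in KRM RAS replicate 1 and at 107 and 77.4 CPM in replicates 2 and 3. The sum of the macrophage identity list was 16572, 10830.1 and 12654 CPM, against 19581 to 27512 CPM in Sham. Other lists moved with the groups too. The 9 dissociation stress genes summed to 30083 to 46563 CPM in Sham and 19513 to 24531 CPM in RAS, with 3 called lower, all 6 T and NK cell markers were higher in RAS, and so were 4 of 5 tested fibroblast and pericyte markers. The part of these RNAs in the V1 values was not tested.

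Of the 64 other pathway genes 2 passed in KRM, both higher in RAS, fewer than the 9.7% of all genes would give. Atp6v0d2, a d subunit isoform of restricted expression, was at 0, 0, 0.299 and 0.941 CPM in Sham and at 6.68, 102 and 91.6 CPM in RAS (adjusted p = 0.019, edgeR). Rragd, a GTPase of lysosomal nutrient sensing, was at 0.241 to 4.19 CPM in Sham and at 2.65, 80.4 and 66.1 CPM in RAS (adjusted p = 0.0425, edgeR). Replicates 2 and 3 again held nearly all of both.

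**Figure D5:**
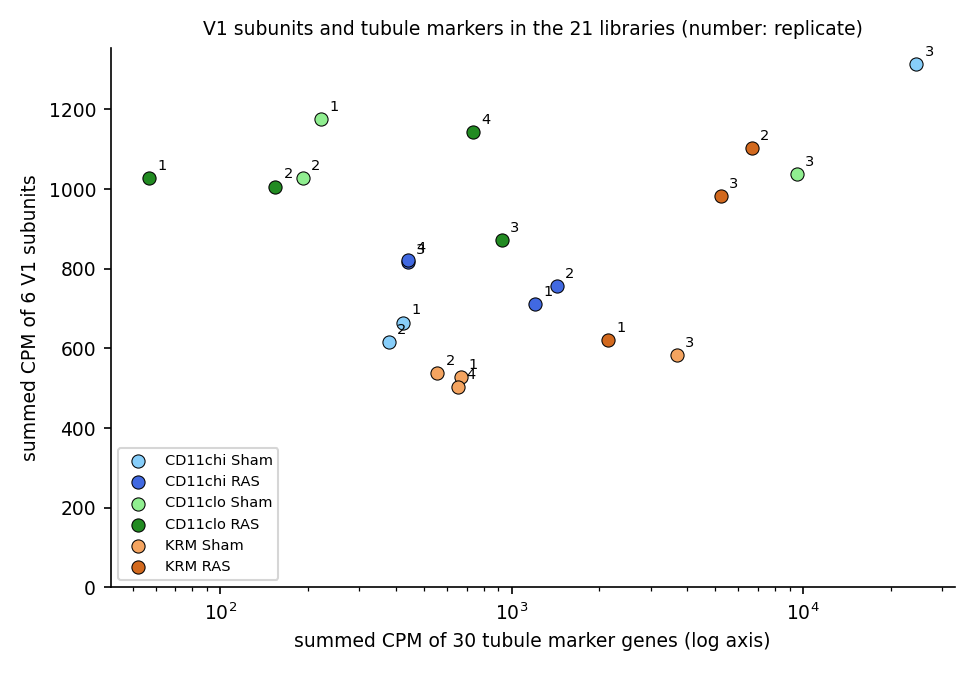
Summed CPM of the 6 V1 subunits against the summed CPM of 30 tubule marker genes (log axis), 1 point per library, coloured by group and numbered by replicate. CD11cloMϕ libraries have V1 sums of 873 to 1175 CPM at tubule sums from 56.8 to 9511 CPM, whereas the highest V1 sums of CD11chiMϕ Sham and KRM RAS, 1314 and 1103 CPM, are in the libraries of those groups with the most tubule markers. CD11chiMϕ RAS goes the other way, with 711 and 756 CPM at tubule sums of 1204 and 1428 CPM and 817 and 823 CPM at 439 and 440.0 CPM.

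In CD11cloMϕ of Sham kidneys the library richest in tubule markers did not have the highest V1 sum. It was 1175 and 1028 CPM in Sham replicates 1 and 2, whose 30 tubule markers summed to 222 and 192 CPM, and 1037 CPM in replicate 3, whose markers summed to 9511 CPM. KRM Sham libraries held 503 to 582 CPM of V1 mRNA, and replicate 3, with 3686 CPM of tubule markers, was the highest of them.

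In CD11chiMϕ and CD11cloMϕ RAS did not move any member past the threshold. In each, 0 of 37 members and 0% of all genes were called by edgeR, and 3 members had an unadjusted p under 0.05, as had 9.79% of all genes in CD11chiMϕ and 8.96% in CD11cloMϕ. DESeq2 called 0 members in CD11chiMϕ (1.504% of all genes) and 1 in CD11cloMϕ (0.741%). In CD11chiMϕ the 3 were Gla at 1.64 ± 0.60, Neu1 at -1.53 ± 0.60 and Mitf at 0.83 ± 0.35, and in CD11cloMϕ they were Galns at -1.10 ± 0.18, Atp6v0a1 at 0.80 ± 0.31 and Acp2 at 0.63 ± 0.27. Neu1 in CD11chiMϕ rested on Sham replicate 3, with 409 CPM against 78.3 and 97.3 CPM in the other Sham libraries and 59.4 to 103 CPM in RAS, and without that library its log2 fold change was -0.30 ± 0.30. Galns in CD11cloMϕ lay at 32.6, 30.9, 21.3 and 28.5 CPM in RAS, all below the 56.7 to 61.9 CPM of Sham, as for 3.95% of all genes (adjusted p = 0.553, edgeR).

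Gla was uneven within the RAS groups. In CD11chiMϕ it was at 18.9 and 28.4 CPM in RAS replicates 1 and 2 and at 80.4 and 85.1 CPM in replicates 3 and 4. In CD11cloMϕ the same numbers held 22.3, 53.7, 146 and 139 CPM. Atp6v0c lay at 463, 917, 902 and 841 CPM in the 4 CD11chiMϕ RAS libraries and at 431, 769, 925 and 933 CPM in CD11cloMϕ, with replicate 1 lowest in both.

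Whether KRM responded unlike the other populations was tested with an interaction term, which called no member. For KRM minus CD11chiMϕ 0 members were called by edgeR (0% of all genes), 6 had an unadjusted p under 0.05 (21.2% of all genes) and DESeq2 called 2 (8.26%). For KRM minus CD11cloMϕ 0 were called by edgeR (0.245% of all genes), 16 had an unadjusted p under 0.05 (23.7%) and DESeq2 called 8 (9.52%). Atp6v1a had the value farthest from 0 in both, 2.00 ± 0.59 and 1.58 ± 0.44 (adjusted p = 0.105 and 0.0871, edgeR). All 6 V1 subunits were positive in both, with medians of 1.03 and 0.86, and these differences share the KRM libraries.

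Between populations of RAS kidneys few members were called. Between KRM and CD11chiMϕ 0 members were called by edgeR where 9.23% of all genes were, with 6 at an unadjusted p under 0.05 (29.8% of all genes) and 4 called by DESeq2 (19.3%). Between KRM and CD11cloMϕ 0 were called by edgeR where 9.17% of all genes were, with 7 at an unadjusted p under 0.05 (32.9%) and 5 called by DESeq2 (22.2%). In the latter Manba at 0.49 ± 0.13, Atp6v1b2 at -0.86 ± 0.23 and Atp6v0d1 at -0.66 ± 0.20 had the smallest p-values (adjusted p = 0.0526, 0.0539 and 0.0723, edgeR), with the same signs as in Sham. Atp6v1a stood at 0.41 ± 0.40 (adjusted p = 0.502, edgeR), where it had been lower in Sham. Without KRM RAS replicates 2 and 3 it turned to -0.87 ± 0.32 (adjusted p = 0.335, edgeR), and against CD11chiMϕ it went from 1.12 ± 0.39 to -0.18 ± 0.35.

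Between CD11chiMϕ and CD11cloMϕ of RAS kidneys 3 members were called, 1 higher and 2 lower, where 8.27% of all genes were called, 5.15% higher and 3.12% lower. Acp5, which is abundant in osteoclasts and activated macrophages, was at 48.2, 114, 56.4 and 47.0 CPM in CD11chiMϕ and at 9.99, 29.3, 28.6 and 20.2 CPM in CD11cloMϕ, a log2 fold change of 1.60 ± 0.41 (adjusted p = 0.0418, edgeR). The sialidase Neu1 was at 103, 65.0, 65.3 and 59.4 CPM against 132, 163, 157 and 151 CPM, and differed by -1.05 ± 0.22 (adjusted p = 0.0204, edgeR). Lamp1 was at 680.0 to 797 CPM against 1154 to 1489.9 CPM, and differed by -0.82 ± 0.21 (adjusted p = 0.043, edgeR).

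The groups did not overlap for these 3 genes, as for 9.35% of all genes in the higher and 7.28% in the lower direction. Each call was lost when CD11chiMϕ RAS replicate 3 or 4, or CD11cloMϕ RAS replicate 2 or 4, was left out, which gave 0 members called where 2.02%, 2.15%, 2.41% and 2.36% of all genes were, whereas without CD11chiMϕ RAS replicate 1 there were 5, where 17.3% of all genes were called. Without CD11chiMϕ RAS replicate 2 or CD11cloMϕ RAS replicate 1 or 3 there was 1, where 4.74%, 4.95% and 8.13% of all genes were called. Markers of other myeloid cells moved with this comparison. The 6 dendritic cell markers summed to 962, 1933, 4776 and 5079 CPM in CD11chiMϕ RAS replicates 1 to 4. They summed to 83.3 to 376 CPM in CD11cloMϕ, and 5 were called higher in CD11chiMϕ. The macrophage identity sums of the same CD11chiMϕ libraries were 9407, 5737, 4368.5 and 3601 CPM. The 6 neutrophil markers summed to 3.40 to 195 CPM against 1463 to 2218 CPM, with 2 of 3 tested called lower, and the 5 monocyte markers to 566 to 1384 CPM against 1895 to 4032 CPM, with 3 called lower. Their part in the members' values was not tested. In Sham kidneys, too, the dendritic cell markers were higher in sum in CD11chiMϕ, at 342 to 1736 CPM, than in CD11cloMϕ, at 51.3 to 149 CPM, and KRM, at 83.4 to 108 CPM.

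Lamp2 at -0.96 ± 0.26 and Atp6v1a at -0.69 ± 0.19 missed the threshold between CD11chiMϕ and CD11cloMϕ of RAS kidneys (adjusted p = 0.0505 and 0.0587, edgeR), both with groups that did not overlap.

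Members were also counted by promoter sequence, with no test. In KRM against CD11cloMϕ of Sham kidneys the 9 members with a match included 3 called higher (Mcoln1, Tpp1 and Ppt1) and 4 called lower (Gla, Atp6v1a, Atp6v0c and Atp6v0d1), with a median log2 fold change of -0.28. The 22 matched members without one included 9 called higher and 3 lower, with a median of 0.20.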

How the data were processed

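Kidney macrophage RNA was amplified and made into libraries without strand marking (SMART-Seq v4 and Nextera XT), so antisense genes that overlap Lamp1, Npc1, Hexa, Grn, Ppt1, Acp2, Acp5, Atp6v0b, Atp6v1e1 and Atp6v1h cannot be told apart from them. Estimated counts from OSA alignment to mm10 with Ensembl genes are what the authors deposited, beside a table of quantile-normalised TPM on the log2 scale. DESeq2 is named in the submitters' processing notes. Columns were matched to the sample labels by name. Estimated counts were rounded and lines with 1 name summed (2 lines for Glb1).

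Each comparison used its own libraries. In R 4.3.3, edgeR 4.0.16 filtered genes (filterByExpr, minimum count 10, minimum total 15), scaled libraries by TMM and gave quasi-likelihood F tests, adjusted by Benjamini-Hochberg over all genes tested. The p-values measure the spread between libraries, and no label ties a library to a mouse. Counting error is small at these depths. No replicate pair of 27 matched within counting noise (chi-square per degree of freedom at least 5.13). Some pairs were far closer than others of their group. CD11chiMϕ RAS replicates 3 and 4 gave 5.13, where the other pairs of that group gave 94.3 to 128. KRM RAS replicates 2 and 3 gave 10.1, where the others gave 107 and 136. The labels do not say whether such libraries share animals, and the tests treat them as independent. Libraries with the same number correlated in their deviations from group means at 0.22 to 0.67 between Sham populations, which met the rule for pairing, and not in the other comparisons.

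Alternatives were median-of-ratios factors, total library size, no filter, 1 fit over 6 groups, the replicate block, DESeq2 1.42.0, limma 3.58.1 (the log2 table, leaving out KRM RAS replicate 1), a fold above 2 with unadjusted p under 0.05, and each library left out; leaving out the Sham libraries of replicate 3, or KRM RAS replicates 2 and 3, was chosen after seeing the data. On simulated data with 200 genes changed by 2 log2 units, 47% were recovered for KRM against CD11chiMϕ in Sham and 66.5% for RAS against Sham in KRM. The members and lists were chosen with earlier results of these data known. Any member could be named; values per library were given for at most 4 members in each direction with the smallest adjusted p among those called, and for Lamp1, Cd68, Gusb, Grn, Tfeb, Tfe3, Mitf, Atp6v0d1 and Atp6v1a. Other named genes were at most 3 of a list with the smallest adjusted p, of which some are not reported here; the libraries of Gla, Galns, Atp6v0c and Atp6v1b1 in further groups were shown after their values were seen. Sequences are from RefSeq (GRCm38.p6).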

Additional observations from a re-analysis of the deposited data

Results flagged for a closer look

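Of 111 groups of 4 libraries tested over the 37 members, 12 had a highest or lowest library set apart from the rest by Dixon's test at the 95% level, which chance gives in about 1 in 20 groups. Of these, 7 were in CD11chiMϕ RAS, 4 in CD11cloMϕ RAS and 1 in KRM Sham. CD11chiMϕ RAS replicate 2 had 772 CPM of Cd63 against 139 to 217 CPM in the others, and 114 CPM of Acp5 against 47.0 to 56.4 CPM. The same library was lowest for Asah1, at 208 CPM against 496 to 519 CPM, and for Man2b1, at 472 CPM against 801 to 805 CPM. CD11chiMϕ RAS replicate 1 was highest for Neu1, at 103 CPM against 59.4 to 65.3 CPM, and for Mcoln1, at 67.5 CPM against 53.6 to 55.2 CPM, and lowest for Atp6v0c, at 463 CPM against 841 to 917 CPM.

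In CD11cloMϕ RAS replicate 3 was highest for Hexa, at 747 CPM against 445 to 475 CPM, and for Ppt1, at 484 CPM against 363 to 374 CPM. Replicate 2 was highest for Npc1, at 52.0 CPM against 40.8 to 42.5 CPM, and replicate 4 lowest for Glb1, at 65.3 CPM against 75.4 to 76.2 CPM. In KRM Sham, replicate 3 was highest for Atp6v1b2, at 195 CPM against 161 to 166 CPM.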

How the results depend on the processing

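The calls made with all libraries kept their direction in every alternative run. Of members not called with all libraries, Cd63 and Neu1 were called with the other sign once CD11chiMϕ Sham replicate 3 was left out. For KRM against CD11chiMϕ, without that library alone, Cd63 stood at 1.38 and Neu1 at 0.65, against -0.68 and -0.59 with all libraries. Of the 24 members called between KRM and CD11cloMϕ of Sham kidneys, 9 kept the call in every alternative judged by adjusted p (Lipa, Gla, Gusb, Galns, Mcoln1, Atp6v0d1, Atp6v1a, Atp6v1b2 and Atp6v1e1) and 15 lost it in at least 1. The rule of a fold above 2 with unadjusted p is counted apart, and of the 9 Lipa and Mcoln1 did not meet it. The number of members called is given below for alternatives that moved it by more than 1.5 times, and the cause was not tested.

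The share of all genes that the same alternative called follows each count in parentheses. In KRM against CD11cloMϕ of Sham kidneys 1 fit over 6 groups called 11 (23.8%) and the rule of a fold above 2 with unadjusted p under 0.05 called 7 (25.2%). In KRM against CD11chiMϕ of Sham kidneys DESeq2 called 3 (12.4%), the fold rule 1 (12.5%) and the fit without the Sham libraries of replicate 3 called 1 (12.0%). In CD11chiMϕ against CD11cloMϕ of Sham kidneys 1 fit over 6 groups called 1 (5.64%), the replicate block 1 (4.92%), DESeq2 2 (7.90%), the fold rule 3 (12.6%) and the fit without the Sham libraries of replicate 3 called 9 (15.7%). In RAS kidneys, KRM against CD11chiMϕ gave 1 (14.7%) with 1 fit over 6 groups, 4 (19.3%) with DESeq2, 4 (16.3%) with limma and 1 (20.8%) with the fold rule. KRM against CD11cloMϕ gave 1 (9.48%) with median-of-ratios factors, 2 (11.4%) with total library size, 2 (12.7%) with 1 fit over 6 groups, 5 (22.2%) with DESeq2, 6 (24.95%) with limma and 1 (20.3%) with the fold rule. CD11chiMϕ against CD11cloMϕ gave 1 (6.80%) with total library size and 5 (13.9%) with DESeq2. For RAS against Sham, the fold rule called 2 (8.07%) in CD11chiMϕ and 1 (4.37%) in CD11cloMϕ, and DESeq2 called 1 (0.741%) in CD11cloMϕ. In KRM the replicate block called 0 (0.327%), DESeq2 14 (25.6%), limma 22 (52.5%) and the fit without KRM RAS replicates 2 and 3 called 0 (1.31%). For the response of KRM minus that of CD11chiMϕ, DESeq2 called 2 (8.26%), limma 3 (7.80%) and the fold rule 3 (18.9%), and minus that of CD11cloMϕ they called 8 (9.52%), 16 (28.0%) and 2 (16.4%).

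Leaving out each library gave 0 to 6 members for KRM against CD11chiMϕ in Sham (6 without CD11chiMϕ Sham replicate 3, with 13.6% of all genes, and 1 without replicate 2, with 6.95%), 18 to 26 for KRM against CD11cloMϕ (32.8% to 47.1% of all genes) and 0 to 3 for CD11chiMϕ against CD11cloMϕ (3 without CD11chiMϕ Sham replicate 3, with 5.70%). In RAS it gave 0 to 3 (3 without CD11chiMϕ RAS replicate 1, with 17.6%, and 1 without KRM RAS replicate 1, with 19.6%), 0 to 5 (5 without KRM RAS replicate 1, with 23.0%, and 3 without CD11cloMϕ RAS replicate 3, with 16.2%) and 0 to 5 (5 without CD11chiMϕ RAS replicate 1, with 17.3%). RAS against Sham gave 0 in CD11chiMϕ, 0 in CD11cloMϕ and 0 to 23 in KRM (23 without KRM RAS replicate 1, with 50.2%, and 2 without KRM Sham replicate 3, with 10.6%). The differences in response gave 0 to 2 and 0 to 15, both highest without KRM RAS replicate 1, where 7.40% and 16.1% of all genes were called. Total library size moved the median log2 fold change of all genes from 0.03 to 0.27 for KRM against CD11chiMϕ in RAS. Between RAS and Sham, the deviations of libraries with the same number correlated at -0.24 to -0.05 in CD11chiMϕ, -0.18 to 0.20 in KRM and 0.09 to 0.33 in CD11cloMϕ, where 1 of 3 pairs missed the limit for pairing, so the replicate block, which called 0 members in KRM, rests there on a shared number. The lowest members, Gla and Mitf, had 77 and 81 counts in their lowest libraries.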
